A study of Macaca fuscata with 12 samples.

Results

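Genes of the microtubule system were followed in the left cerebral cortex of Japanese macaques (Macaca fuscata) trained in tool use and of control animals. They were chosen by gene symbol alone: alpha, beta and gamma tubulins, kinesin heavy and light chains, cytoplasmic dyneins and their light chains, dynactin, stathmins, the classical microtubule-associated proteins and the doublecortin family. The array's gene table gave 118 of 52766 tested probe sets a single symbol of this kind, for 66 of 14132 genes. Of these genes 32 had 1 probe set and 34 had several, with at most 5 for KIF9.

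RNA was hybridised to 12 Affymetrix rhesus macaque arrays, 3 in each of 4 groups. The groups were control and tool-use trained animals, each with tissue from around the lateral sulcus, where the secondary somatosensory area lies (SII), and from around the intraparietal sulcus (IPS). The 8 animals were aged 54, 64 and 70 months in SII control, 67, 46 and 61 months in SII trained, 64, 70 and 45 months in IPS control, and 67, 72 and 61 months in IPS trained. Of the animals, 4, written here by their arrays, gave both regions: SII control 2 with IPS control 1, SII control 3 with IPS control 2, and trained 1 and trained 3 in both. The donors of SII control 1 and SII trained 2 were female, and those of the remaining 10 arrays male. No lesion, drug or transgene is named in the labels for any group. Each array is 1 animal's tissue block, in which fewer cells of a type and less RNA per cell cannot be told apart.

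Microtubules are hollow polymers of alpha and beta tubulin that grow from templates made of gamma tubulin and its partner proteins. In neurons they fill axons and dendrites and serve as tracks: kinesins carry most cargo outward along axons, and cytoplasmic dynein, with its cofactor dynactin, carries cargo back to the cell body. Stathmins, microtubule-associated proteins and doublecortins set how stable the tracks are, and other kinesins and the second cytoplasmic dynein work in dividing cells and cilia. Axonal sprouting and growth cones depend on this system in the developing and the injured brain.

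Every value below is a log2 distance from that probe set's own median over the 12 arrays, since the deposited table is centred in that way. A value therefore gives a position and no level, and levels of different genes cannot be compared. A coarse signal class could be recovered from the spacing of the stored numbers. By this reading 29 of the 118 (24.6%) were of high signal, from 256 upward, and 51 (43.2%) of middle signal, from 16 upward. Another 34 (28.8%) were of low signal. The other 4 (3.39%) lay at a common lowest signal, here called the floor, in several arrays. Over all tested probe sets the shares were 8.49% high, 39.5% middle, 33.2% low and 18.8% at the floor, and over those with a single gene symbol 12.1% high, 49.1% middle, 27.7% low and 11.2% at the floor.

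The families differed in signal. Stathmins had 4 of 5 probe sets at a high signal, cytoplasmic dynein 1 had 5 of 9, beta tubulins 3 of 5 (all TUBB3, the neuronal beta tubulin) and the doublecortin family 3 of 7. The 22 probe sets of axonal and dendritic transport kinesins held 7 of high and 10 of middle signal. The 11 probe sets of mitotic kinesins held 1 of high and 3 of middle signal, with 5 low and 2 at the floor. Ciliary kinesins (12 probe sets) held 1 of high, 5 of middle and 6 of low signal. These classes come from different probes and are no ranking of transcript levels.

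Signal class set the precision. Replicates of high-signal members spread with a median SD of 0.22 within groups, those of middle signal with 0.34, those of low signal with 0.61 and those at the floor with 0.65. Over all probe sets the same medians were 0.23, 0.37, 0.78 and 1.03. A probe set of DYNC1LI2, a light intermediate chain of dynein, had the smallest SD (0.08), and one of KIF9, a kinesin of motile cilia, the largest (1.50).

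**Figure D1:**
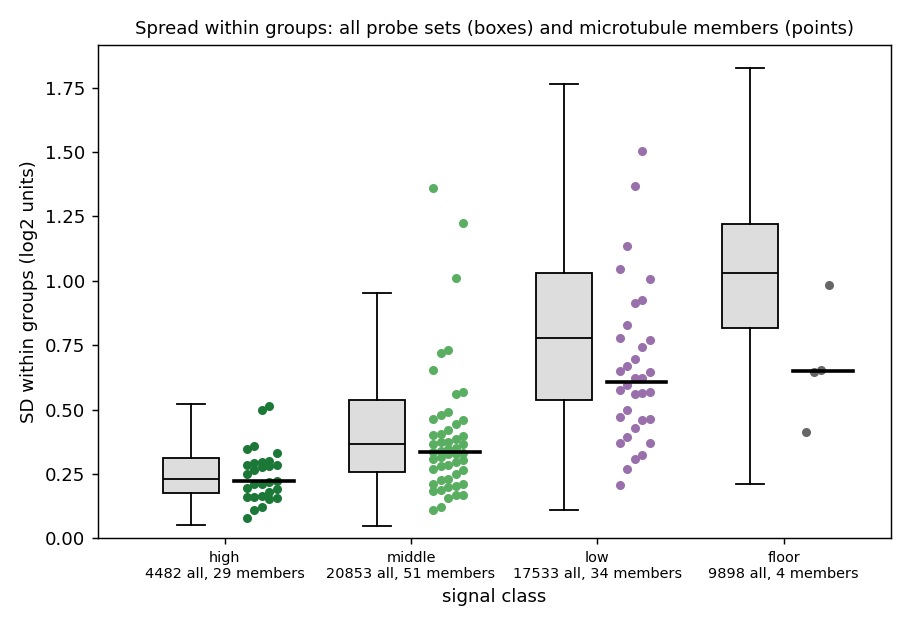
SD within groups (vertical axis, log2 units) by signal class (horizontal axis). Boxes give the quartiles of all tested probe sets, points are the microtubule probe sets and black lines beside the boxes their medians, which run from 0.22 for high to 0.65 for floor probe sets.

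Several arrays stood apart. The hybridisation controls, which are added in the same amount to each array, were raised in SII control 1 (0.45), SII trained 2 (0.54) and IPS trained 3 (0.46), against -0.13 to 0.08 in the others. For GAPDH the 3' probe set minus the 5' one, which depends on how intact the RNA is, lay between -0.51 and -0.27 in SII controls, between -0.23 and 0.77 in SII trained arrays, between -0.10 and 0.28 in IPS controls and between -0.24 and 0.89 in IPS trained arrays. It thus separated the SII groups, whereas the same difference for actin did not, with 0.25, -1.87 and -1.71 in SII controls and 1.17, 0.63 and -1.54 in SII trained arrays. In a fit with the GAPDH difference as a covariate the 24 values named for their small p kept their direction. They were chosen from these same arrays, and in SII the covariate runs with training. This fit therefore cannot fully tell RNA state from training there.

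Among the 12 families, 1 had array medians that separated trained from control arrays within a region. Kinesin heavy chains (56 probe sets) had medians of -0.03, -0.03 and 0.01 in IPS controls and of 0.05, 0.10 and 0.02 in IPS trained arrays. The gap is small beside the range over all 12 arrays, from -0.10 to 0.16, and the groups overlapped over the 32 of these probe sets with high or middle signal. Cytoplasmic dynein 1 (9) had a median of 0.44 in IPS trained 1, 0.08 in IPS trained 2 and -0.18 in IPS trained 3. Dynactin (8) had 0.30, 0.17 and -0.19 in the same arrays, and stathmins (5) 0.31, 0.15 and -0.20. IPS trained 1 was thus the high array and IPS trained 3 the low one for these 3 families, and the 3 trained animals in IPS spread more widely than the controls. IPS trained 1 also held the highest value in 15 of the 80 members of high or middle signal (18.8%), and SII trained 2, from a female animal, in 16 (20.0%). Over all probe sets of that signal the shares were 15.8% and 15.6%, so neither count says much about the members.

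**Figure D2:**
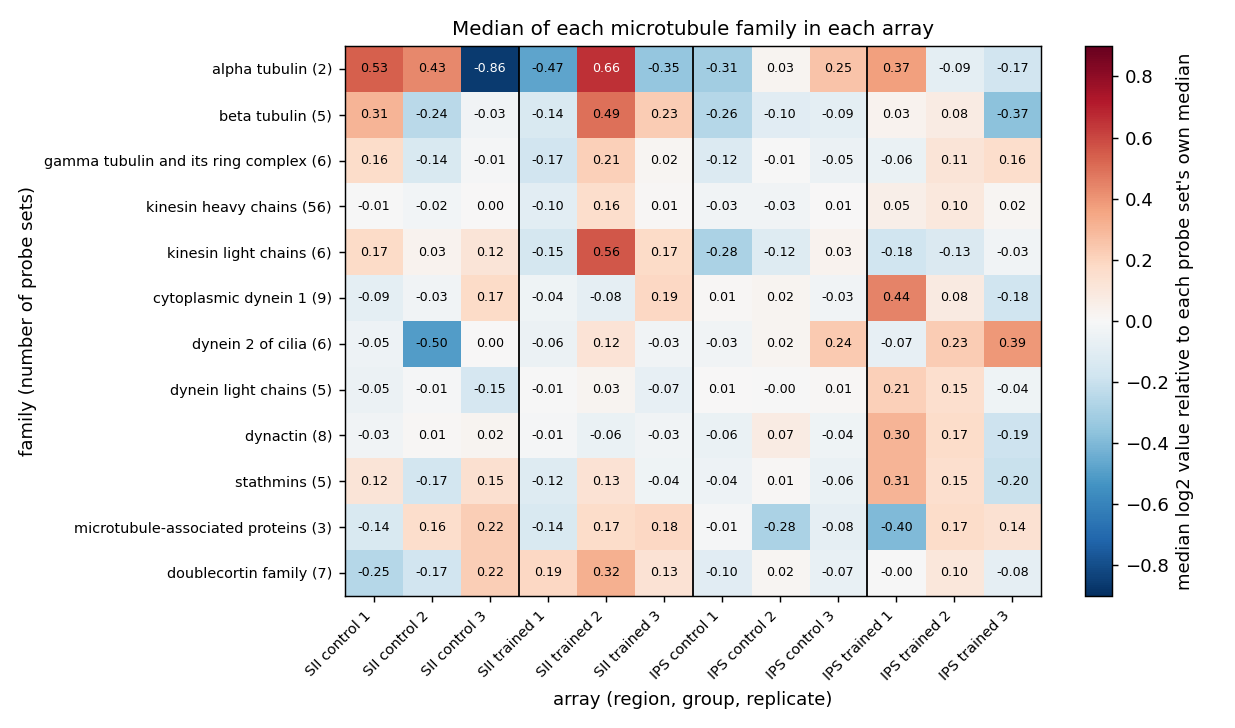
Median value of each microtubule family (rows, number of probe sets in brackets) in each array (columns), in log2 units relative to each probe set's own median, with red above and blue below it. Cytoplasmic dynein 1, dynactin and stathmins are highest in IPS trained 1 (0.44, 0.30 and 0.31).

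Around the lateral sulcus the question was whether microtubule genes differ between trained and control animals. None of the 118 probe sets passed 5% in limma (smallest adjusted p 0.779, for DCX). An unadjusted p under 0.05 was found in 8 of 118 (6.78%), against 3.87% of all probe sets, with 6 higher and 2 lower in trained animals. The median change was 0.03, against 0.06 over all probe sets, and 64 of 118 lay above 0, against 56.4%. All 8 had a low signal or floor values. Higher values made up 2.53% and lower ones 1.35% of all probe sets. Among the 80 members of high or middle signal 0 had an unadjusted p under 0.05 in limma, against 1.61% of all probe sets of that signal. With probe sets averaged by gene, 7 of 66 genes (10.6%) had an unadjusted p under 0.05, against 3.49% of all genes, and 0 passed 5%. In 12 of 118 the groups did not overlap (10 higher and 2 lower), which is 10.2%, against 7.08% of all probe sets, 4.7% being higher.

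Among the tubulins, TUBB1, the beta tubulin known from platelets and their precursors, had values of -0.66, -0.24 and -1.74 in SII controls and of 0.34, 0.49 and 0.75 in SII trained animals. All 3 trained arrays lay above all 3 controls, with a change of 1.39 ± 0.46 (SE, unadjusted p 0.0126 in limma, n = 3 per group). In IPS the same probe set had -0.26, -0.17 and 0.26 in controls and 0.17, -0.98 and 0.64 in trained animals, where the groups overlapped. The 5 probe sets of blood markers are of HBA, HBB, ALAS2 and AHSP, genes of red cells, with no platelet marker among them. Of these, 5 had a change above 0 in SII (median 0.21) and 4 in IPS (median 0.41), where TUBB1 had 0.00 ± 0.46. All 5 were of low signal or at the floor. Their array medians ran from -0.31 to 0.95, the highest being SII trained 2, and their part in the TUBB1 value was not tested. TUBB3 had changes of -0.42 ± 0.41, -0.42 ± 0.40, 0.06 ± 0.22 and 0.20 ± 0.38 over its 4 probe sets, and the alpha tubulin TUBA4A of 0.22 ± 0.20.

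DCX encodes doublecortin, which stiffens microtubules in migrating and young neurons, and its probe sets did not move together. The one of low signal (MmugDNA.33022.1.S1_at) lay at -1.36, -1.18 and -0.82 in SII controls and at 1.25, 0.93 and 0.56 in SII trained animals. The groups were far apart, with a change of 2.03 ± 0.44 (unadjusted p 0.000944), the largest among the 118. The one of middle signal (MmugDNA.19033.1.S1_at) lay at 0.51, -0.17 and 0.22 in controls and at 0.41, 0.32 and -0.13 in trained animals, so that those groups overlapped fully (change 0.01 ± 0.24, 95% interval -0.51 to 0.54). In IPS the low probe set had 0.00, 0.07 and -1.04 in controls and 0.00, -0.91 and 0.74 in trained animals. DCLK1, a doublecortin-like kinase, had changes between -0.19 and 0.07 over 3 probe sets of high signal in SII.

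Among the kinesins, KIF12, a kinesin known from epithelial organs, lay at -0.92, -0.89 and -1.63 in SII controls. Its SII trained values were 0.29, -0.22 and 0.54, all above the controls, with a change of 1.36 ± 0.40 (unadjusted p 0.00617). KIF13A, which carries endosomal vesicles, lay at -1.24, -0.66 and -1.79 in controls and at 0.62, -0.74 and -0.17 in trained animals. Here SII trained 2 fell within the control range, the change was 1.12 ± 0.45, and it was 0.62 with the GAPDH difference as a covariate. The other KIF13A probe set, of middle signal, had a change of -0.72 ± 0.75, with -2.98 in SII trained 2 alone. KLC1, a light chain that joins kinesin-1 to its cargo, had 0.33, -0.91 and 0.28 in controls and 0.81, 0.63 and 0.88 in trained animals. It lay at the floor in 5 of the 12 arrays, among them SII control 1 and SII trained 2, and its change of 0.86 ± 0.34 became 0.15 when 1 common floor was set for all arrays. KIF19, which trims the tips of motile cilia and was chosen after its values were seen, had -0.19, 0.54 and 0.65 in controls and -2.22, -1.61 and 0.39 in trained animals. Its groups overlapped through SII trained 3 (change -1.48 ± 0.62).

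The kinesins that do most of the known axonal transport had changes on both sides of 0 in SII, from -1.06 to 1.12 over their 22 probe sets. KIF5A, a neuronal heavy chain of kinesin-1, lay at -0.01, 0.06 and -0.05 in controls and at -0.28, -0.14 and 0.34 in trained animals, with a change of -0.03 ± 0.23. The other kinesin-1 heavy chains gave -0.06 ± 0.21 and -0.47 ± 0.37 for KIF5B and 0.03 ± 0.31 and 0.28 ± 0.35 for KIF5C. KIF1B, a carrier of synaptic vesicle precursors, had -0.76 ± 0.57, -0.18 ± 0.30 and -0.18 ± 0.30, the first from a probe set of low signal. KIF2A, which shortens microtubules at their ends, had changes between -0.10 and 0.20 over 4 probe sets of middle signal. KIF3A, a subunit of kinesin-2, had 1 probe set of low signal with a change of 0.12 ± 1.00, too imprecise to bound its size. Over the 22 probe sets of transport kinesins the median change was 0.03, with 12 above 0. An unadjusted p under 0.05 in limma was found in 1 (KIF13A), which is 4.55%, against 3.87% of all probe sets. The share of all probe sets above 0 was 56.4%. The 12 ciliary kinesin probe sets had a median of 0.08, with 9 above 0, and the 11 mitotic ones a median of -0.06, with 5 above 0.

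For the motor that moves back to the cell body, DYNC1H1, the heavy chain of cytoplasmic dynein, had -0.55, -0.15 and 0.20 in SII controls and 0.38, 0.63 and 0.23 in SII trained animals. The groups only just parted, with the highest control at 0.20 and the lowest trained array at 0.23. The change was 0.58 ± 0.26 (unadjusted p 0.0494 in limma, low signal). In IPS it had a change of -0.03 ± 0.26. DYNC1LI1, a light intermediate chain, had changes of 0.40 ± 0.26 and -0.07 ± 0.29, and DYNLL1, a small light chain shared with other complexes, of 0.18 ± 0.19. DCTN5, a subunit at the pointed end of the dynactin filament, lay at 0.30, 0.07 and -0.04 in SII controls and at -0.45, -1.10 and -0.87 in SII trained animals. All trained arrays lay below all controls (unadjusted p 0.00232, adjusted p 0.911). The other 7 dynactin probe sets had changes between -0.14 and 0.19, among them DCTN1, the large subunit that grips the microtubule, at -0.07 ± 0.30.

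DYNC2I1 is an intermediate chain of the second cytoplasmic dynein, which returns cargo from the tips of cilia. Its probe set of middle signal lay at -0.30, -0.49 and -0.11 in SII controls and at 0.65, -0.02 and 0.02 in SII trained animals. All trained arrays lay above the controls, SII trained 1 by the most, with a change of 0.52 ± 0.26 (unadjusted p 0.0792). The probe set of low signal had -0.31 ± 0.44, and the 6 probe sets of this dynein had a median change of 0.06 with 3 above 0.

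Stathmins, which bind free tubulin and favour disassembly, had changes in SII of -0.03 ± 0.27 and 0.11 ± 0.23 for STMN2, -0.06 ± 0.26 and -0.33 ± 0.31 for STMN3 and 0.04 ± 0.27 for STMN4. MAP1B, a microtubule-associated protein of growing axons, had -0.18 ± 0.55, and MAP6, which protects microtubules against cold and drugs, had -0.13 ± 0.22 and 0.30 ± 0.22. The data bounded many of these values. Of the 80 members of high or middle signal, 63 (78.8%) had a 95% interval wholly within 1 log2 unit of 0, a 2-fold change either way, against 64.3% of all probe sets of that signal. Of the 38 members of low signal or at the floor 5 had such an interval.

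**Figure D3:**
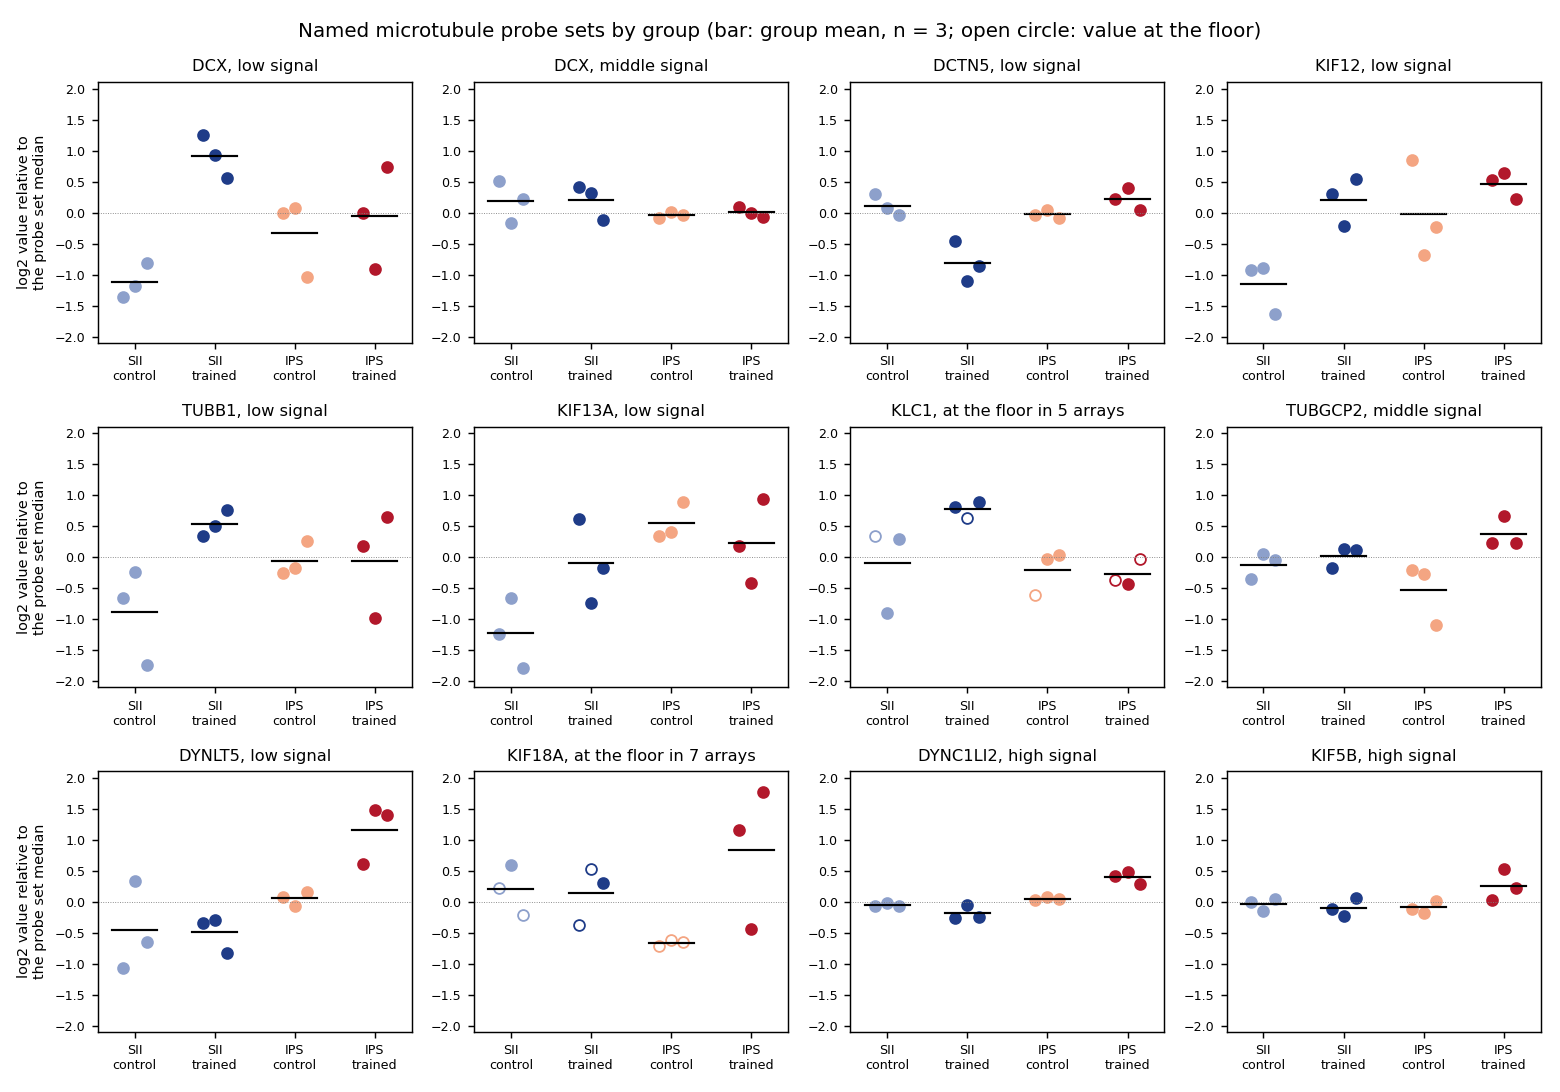
Values of 12 probe sets (one panel each) in the 4 groups, in log2 units relative to the probe set's median. Points are arrays (n = 3 per group), open circles values at the floor, and bars group means. DCX of low signal, KIF12 and TUBB1 are higher and DCTN5 is lower in all 3 SII trained arrays, while DCX of middle signal overlaps fully and DYNLT5 and TUBGCP2 are higher in all 3 IPS trained arrays.

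Around the intraparietal sulcus again 0 of 118 passed 5% in limma (smallest adjusted p 1.000). An unadjusted p under 0.05 was found in 3 of 118 (2.54%), all higher in trained animals, against 3.27% of all probe sets, of which 1.81% were higher and 1.46% lower. In 10 of 118 the groups did not overlap, 9 of them higher in trained animals, which is 8.47%, against 9.49% of all probe sets, 5.77% being higher. The median change was 0.09, against 0.01 over all probe sets, and 68 of 118 lay above 0, against 51.7%. Among the 80 members of high or middle signal 1 had an unadjusted p under 0.05, against 1.33% of all probe sets of that signal. By gene it was 3 of 66 (4.55%), against 2.87% of all genes.

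TUBGCP2, a scaffold protein of the gamma tubulin ring that seeds new microtubules, lay at -0.22, -0.27 and -1.09 in IPS controls and at 0.23, 0.66 and 0.23 in IPS trained animals. The groups did not overlap, IPS control 3 was the lowest, and the change was 0.91 ± 0.28 (unadjusted p 0.00843, middle signal). Its other probe set, also of middle signal, had -0.13, 0.08 and -0.01 in controls and -0.28, -0.26 and 0.08 in trained animals, a change of -0.13 ± 0.22. Gamma tubulin itself (TUBG1) had 0.13 ± 0.21.

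DYNLT5, of the Tctex family of dynein light chains, lay at 0.08, -0.08 and 0.16 in IPS controls and at 0.61, 1.48 and 1.40 in IPS trained animals. All 3 trained arrays lay above the controls, with a change of 1.12 ± 0.37 (unadjusted p 0.0132, low signal). DYNC1LI2 showed the tightest data of any member. Its probe set MmugDNA.19273.1.S1_at had 0.03, 0.08 and 0.03 in IPS controls and 0.41, 0.48 and 0.28 in trained animals, again without overlap (change 0.34 ± 0.18, unadjusted p 0.0843). The SE exceeds what the small SD alone would give because the moderated fit draws each variance toward that of all probe sets. The 4 DYNC1LI2 probe sets, all of high signal, had changes of 0.19, 0.34, 0.10 and 0.20 in IPS and of -0.13, -0.13, -0.04 and -0.06 in SII.

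KIF18A, which holds chromosomes in line during division, had -0.71, -0.62 and -0.65 in IPS controls, all at the floor, and 1.16, -0.44 and 1.77 in IPS trained animals. The group values did not overlap, but its probe set lay at the floor in 7 of the 12 arrays. The change of 1.50 ± 0.50 became 0.63 with 1 common floor. KIF25 had -1.11, -1.45 and -0.07 in controls and -0.23, 0.53 and 0.64 in trained animals (change 1.17 ± 0.59), with overlap, while its other probe sets had 0.48 ± 0.50 and -0.34 ± 0.53. KIF5B had -0.11, -0.18 and 0.00 in controls and 0.02, 0.53 and 0.22 in trained animals at a high signal. The groups only just parted, and the change was 0.35 ± 0.21 (95% interval -0.11 to 0.81), with 0.02 ± 0.37 for its second probe set.

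Other transport kinesins in IPS had changes of 0.20 ± 0.23 for KIF5A, 0.18 ± 0.31 and -0.53 ± 0.35 for KIF5C and -0.75 ± 1.00 for KIF3A. For KIF1B they were 0.77 ± 0.57, -0.32 ± 0.30 and -0.30 ± 0.30. Ciliary kinesins had a median change of 0.29, with 10 of 12 above 0, against 51.7% of all probe sets. Among them 0 had an unadjusted p under 0.05 in limma, against 3.27%. The ciliary kinesin KIF6, chosen after its values were seen, had 0.70 ± 0.44 and 0.72 ± 0.43, and 0.71 ± 0.23 with its probe sets averaged (unadjusted p 0.00990 in limma). Mitotic kinesins had a median of -0.01, with 3 of 11 above 0. Tubulins and stathmins had values near 0, with 0.14 ± 0.20 for TUBA4A, -0.03 to 0.25 over the 4 TUBB3 probe sets, 0.15 ± 0.27 and 0.20 ± 0.23 for STMN2, 0.17 ± 0.26 and -0.01 ± 0.31 for STMN3 and -0.06 ± 0.27 for STMN4. MAP1B had 0.88 ± 0.55, with 1.65 in IPS trained 2 and -0.68 in IPS trained 1, and the MAP6 probe sets had -0.03 ± 0.22 and 0.17 ± 0.22. Of the 80 members of high or middle signal 67 (83.8%) had a 95% interval within 1 log2 unit of 0, against 66.4% of all probe sets of that signal.

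**Figure D4:**
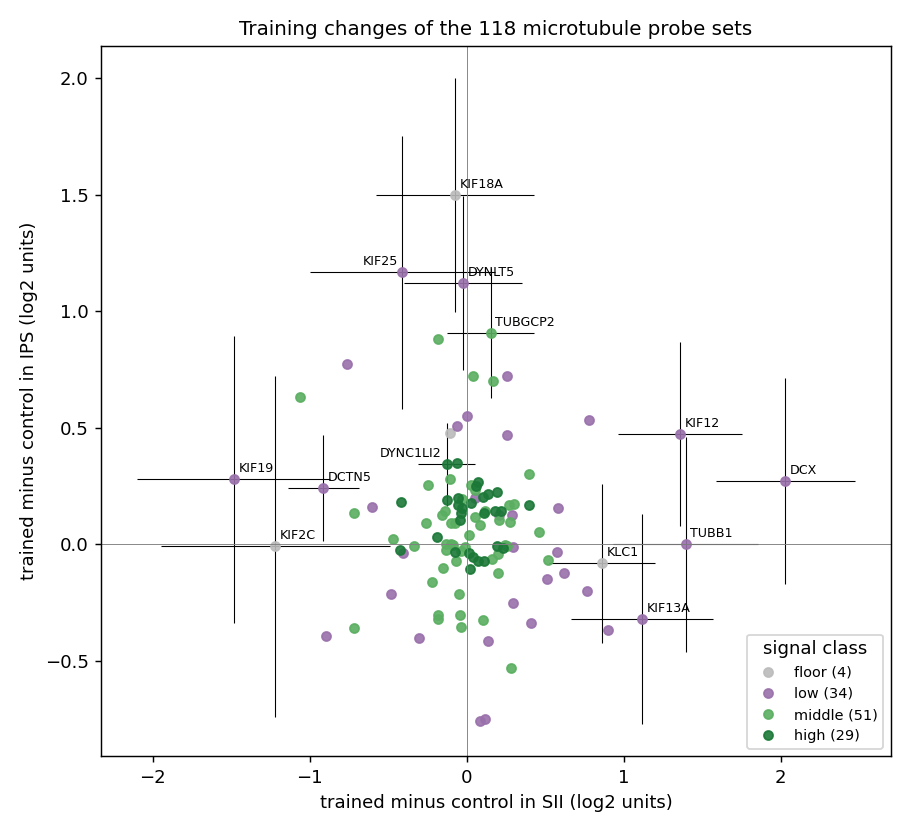
Trained minus control change of each of the 118 probe sets in SII (horizontal axis) and in IPS (vertical axis), in log2 units, coloured by signal class, with the SE of both changes drawn for labelled probe sets. The high and middle signals cluster around 0, and the farthest points, DCX at 2.03 in SII and KIF18A at 1.50 in IPS, have a low signal or floor values.

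The difference between the regions in the training change was tested directly, and 0 of 118 passed 5% in limma (smallest adjusted p 1.000). An unadjusted p under 0.05 was found in 4 of 118 (3.39%), 2 higher and 2 lower, against 3.68% of all probe sets, 1.63% higher and 2.05% lower. With probe sets averaged by gene, 5 of 66 genes (7.58%) had one, against 3.28% of all genes. DCTN5 differed by 1.15 ± 0.32, from a change of -0.91 in SII and 0.24 ± 0.23 in IPS, where its values were -0.04, 0.04 and -0.09 in controls and 0.22, 0.40 and 0.04 in trained animals. DCX of low signal differed by -1.76 ± 0.62, KIF13A by -1.44 ± 0.63 and KIF18A by 1.57 ± 0.70. DYNLT5 (1.14 ± 0.52) and TUBB1 (-1.40 ± 0.64) followed, with p above 0.05. No probe set among the 118 had groups that did not overlap in both regions with changes of opposite sign, against 163 of 52766 (0.309%) overall.

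Where a gene had several probe sets, they often pointed different ways. All probe sets had the same sign of change in 15 of 34 genes in SII (44.1%, against 38.6% of all such genes) and in 16 of 34 in IPS (47.1%, against 40.9%). The large values of DCX, KIF13A and TUBGCP2 each belong to 1 of 2 probe sets.

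Between the regions, IPS minus SII averaged over training, 0 of 118 passed 5% in limma (smallest adjusted p 0.405). An unadjusted p under 0.05 was found in 12 of 118 (10.2%), 8 higher and 4 lower in IPS, against 9.26% of all probe sets, 4.08% higher and 5.18% lower. With probe sets averaged, 10 of 66 genes (15.2%) had one, against 10.7% of all genes. At that level 3 of 14132 genes (0.0212%) passed 5%, none of them a microtubule gene. The 6 IPS and 6 SII arrays did not overlap in 1 of 118 (0.847%), against 0.984%.

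That 1 was the DYNC1LI2 probe set already described, with all IPS arrays between 0.03 and 0.48 and all SII arrays between -0.26 and -0.03. Its regional difference was 0.34 ± 0.12, and within the 4 animals measured in both regions IPS exceeded SII by 0.06, 0.15, 0.66 and 0.53, the last 2 in trained animals. The remaining DYNC1LI2 probe sets had 0.16 ± 0.17, 0.12 ± 0.19 and 0.10 ± 0.16. DYNC1I2, an intermediate chain through which dynein meets dynactin, had 0.60 ± 0.20, with IPS above SII by 1.08, 0.69, 0.60 and 0.42 in the 4 animals. Its second probe set, also of middle signal, had -0.28 ± 0.20.

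DYNLT5 had a regional difference of 1.08 ± 0.26, the smallest p among the members (unadjusted p 0.00191), from -0.25 and 0.57 within the 2 control animals and 0.96 and 2.23 within the 2 trained ones. KIF13A of low signal had 1.05 ± 0.31, from 1.00, 2.19, -0.44 and 1.11 within the same animals. Each of these kept its direction in 3 of the 4 animals. MAP6 had 0.45 ± 0.15 in one probe set and -0.28 ± 0.15 in the other, so its probe sets opposed each other. DCTN5 had 0.44 ± 0.16, from -0.10, 0.07, 0.67 and 0.90, so the larger differences were in the trained animals. KIF3C, a neuronal subunit of kinesin-2, was lower in IPS in all 4 animals (-0.59, -0.51, -0.14 and -0.44) in a probe set of high signal, with -0.43 ± 0.16 in all arrays and -0.16 ± 0.14 in its other probe set. With only these 4 animals and the animal as a fixed block, 2 of 118 (1.69%) had an unadjusted p under 0.05, against 5.85% of all probe sets in that fit.

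**Figure D5:**
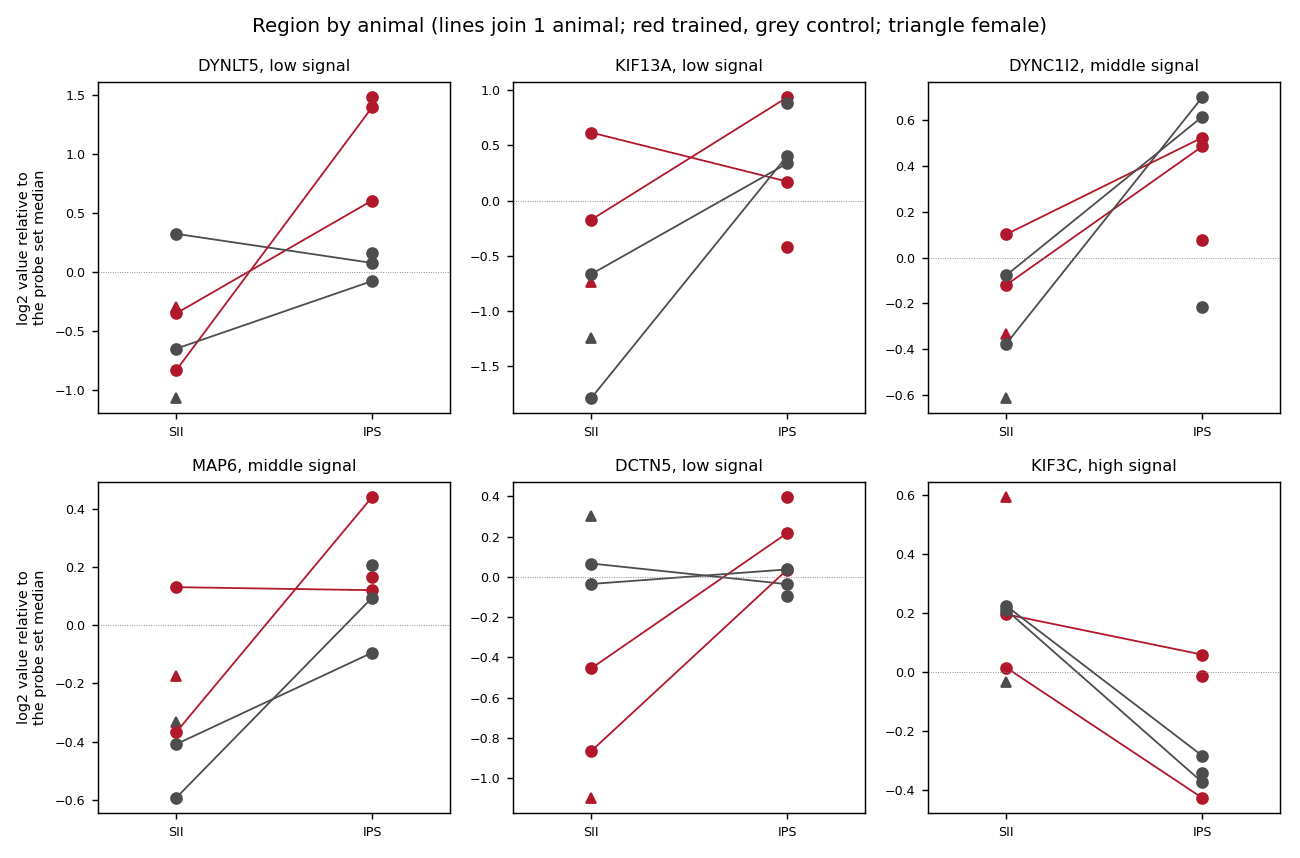
Values of 6 probe sets (one panel each, log2 units relative to the probe set's median) in SII and IPS. Lines join the arrays of 1 animal, red marks trained and grey control animals, triangles females. DYNC1I2 is higher and KIF3C lower in IPS in all 4 animals with both regions, while DCTN5 differs by 0.67 and 0.90 in the trained and by -0.10 and 0.07 in the control animals.

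The arrays of the female animals, both in SII, stood apart from those of the males for many members. In 25 of 118 probe sets both lay outside the range of all 10 arrays from males (15 above and 10 below). This is 21.2%, against 16.7% of all probe sets and 24.2% of those of high or middle signal. The following members were chosen after their values were seen. A KIF21A probe set lay at 2.72 and 2.79 in the females and at most at 1.66 in males, and a KIF9 probe set at 2.73 and 3.01, with at most 1.90 in males. KIF21A is a kinesin that limits microtubule growth in axons. DCTN1 lay at 0.76 and 0.79 against at most 0.07, and DCTN3, a small dynactin subunit, at 0.81 and 0.86 against at most 0.35. Of 4 KIF2A probe sets 2 lay below all males, at -0.78 and -0.71 and at -0.94 and -0.85. Both of these arrays had raised hybridisation controls, as did IPS trained 3 from a male. They also had the highest medians of oligodendrocyte markers (5 probe sets), 0.40 in SII control 1 and 0.88 in SII trained 2. The highest median in an array from a male was 0.24, in IPS trained 1. The part of these properties in the female values was not tested. Each SII group held 1 female, and with males only 7 of 118 had an unadjusted p under 0.05 in SII (5.93%, against 4.23% of all probe sets in that fit), 4 in IPS (3.39%, against 4.04%) and 8 between the regions (6.78%, against 7.00%).

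Genes outside the chosen symbols that act on microtubules were listed as well. In SII, IPS, the difference and the region comparison 0 of them passed 5% in limma. The list of severing and end-binding proteins (38 probe sets) had 24 above 0 in SII (63.2%, median 0.15), against 56.4% of all probe sets. In IPS it also had 24 (63.2%, median 0.09), against 51.7%. There 1 of 38 (2.63%) had an unadjusted p under 0.05 in limma, against 3.27% of all probe sets. That was FIGN, a microtubule-severing enzyme, with 1.98 ± 0.64 in IPS and -1.22 ± 0.64 in SII, a difference of 3.20 ± 0.89, from a probe set with floor values. Motor adaptors and dynein regulators (36) had medians of 0.00 and 0.06, with TRAK1, a mitochondrial motor adaptor, at -0.82 ± 0.31 in SII and BICD1, a dynein adaptor, at 0.62 ± 0.33 in IPS. Tubulin-modifying enzymes (32) had medians of 0.09 and -0.07, with TTLL5, a glutamylase, at -0.76 ± 0.39 in SII and -0.98 ± 0.39 in IPS. Other lattice-binding proteins (19) had medians of 0.03 and -0.03 (EML4 0.33 ± 0.21 in SII, EML1 -0.47 ± 0.26 in IPS).

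The list of tubulin folding cofactors (11) had medians of -0.03 in SII and 0.04 in IPS, with TBCEL at 0.34 ± 0.26 in IPS. It also held TBCK (-0.27 ± 0.23 in SII), which has a similar symbol but is a TBC1 domain kinase and no folding cofactor. Kinases of tau and related proteins (12) had medians of 0.11 and 0.06 (CDK5R1 0.34 ± 0.25, MARK1 0.37 ± 0.41). Between the regions, motor adaptors had 2 higher and 4 lower members in IPS with an unadjusted p under 0.05 among 36, led by BICD2 at -0.79 ± 0.23, beside 4.08% higher and 5.18% lower of all probe sets. CLIP1, which tracks growing ends, had 0.49 ± 0.16. VASH1, a tubulin carboxypeptidase, had 1.30 ± 0.48 with floor values.

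The tissue label was checked with markers. Neuronal markers (15 probe sets) had 7 of high, 6 of middle and 2 of low signal and 0 at the floor, and astrocyte markers (9) had 7 of high and 2 of middle signal. Neuronal array medians ran from -0.21 to 0.19, and their changes had medians of -0.01 in SII and 0.11 in IPS. Between the regions neuronal markers had a median of 0.15 with 12 of 15 above 0, against 49.2% of all probe sets. They ran from -0.89 to 0.91 ± 0.19, the highest being NEFH, a neurofilament of large axons. An unadjusted p under 0.05 in limma was found in 2 higher and 1 lower of the 15, against 4.08% higher and 5.18% lower of all probe sets. All 11 microglial probe sets lay below 0 (median -0.39). Meningeal markers (15 probe sets of 7 genes) had 3 of 15 above 0 in SII (median -0.41) and 4 of 15 in IPS (median -0.22). Over all probe sets 56.4% lay above 0 in SII and 51.7% in IPS. Markers of proliferating cells (17), which mitotic kinesins would accompany, had 0 of high, 4 of middle and 10 of low signal and 3 at the floor, with array medians between -0.33 and 0.22. Of their changes 8 of 17 lay above 0 in SII (median -0.04) and 6 of 17 in IPS (median -0.12). The smallest p in both regions was that of an MKI67 probe set of low signal, at 1.80 ± 0.59 in each. The other MKI67 probe sets were also of low signal. Markers of ependyma with motile cilia (15), which ciliary kinesins would accompany, had 0 of high signal and group medians of -0.29 in SII control, 0.35 in SII trained, -0.03 in IPS control and 0.17 in IPS trained. Their median change by probe set was 0.13 in SII, with 9 of 15 above 0, and 0.02 in IPS, with 8 of 15 above 0. In SII 3 of 15 (20%) had an unadjusted p under 0.05 in limma, all higher, against 3.87% of all probe sets, 2.53% higher. The smallest p was that of a HYDIN probe set of low signal, at 1.71 ± 0.64. In IPS 0 of 15 had one, against 3.27% of all probe sets. The part of these cell types in the values above was not tested.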

How the data were processed

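The authors deposited log2 values per probe set, centred so that each probe set has a median of 0 over the 12 arrays. MAS5 is named per the submitters' processing notes. The log base (inferred from the range) and the scaling between arrays are not given in the sources used here. Of 52865 probe sets 99 controls were left out. A single gene symbol was given to 24956 probe sets, several to 361 and none to 27449, and only single symbols were used. TUBA1A, TUBA1B, TUBB2A, TUBB2B, TUBB4A, TUBB4B, KIF1A, KIF21B, DYNC1I1, STMN1, MAP1A, MAP2, MAP4 and MAPT were not analysed here.

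Signals were classed by the spacing of the single-precision numbers in at least 11 of 12 arrays, so a few very low signals may be counted as middle. The floor was recognised where at least 2 arrays shared a probe set's minimum, allowing for each array's offset.

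Each probe set was fitted with 4 group means by limma (version 3.58.1, run in R 4.3.3 together with statmod 1.5.0). The correlation within animals was estimated (0.047), and p-values were adjusted by Benjamini-Hochberg over 52766 probe sets. Tests were 2-sided, and 3 arrays against 3 cannot give an exact permutation p below 0.1. On simulated data for SII, 50 probe sets were changed by each size. Of these, 0% were recovered at 1 log2 unit, 26% at 2, 48% at 3 and 78% at 4. Replicates within a group are different animals. By the animal labels, the same replicate number marks the same animal across groups only for trained 1 and trained 3. Alternatives covered filters, weights, blocks, covariates and left-out arrays. Named members were the 6 smallest p per comparison, the smallest gene p per family, and a list of neuronal microtubule genes. Members and lists were chosen with earlier results of these data known.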

Additional observations from a re-analysis of the deposited data

How the results depend on the processing

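The count of members past 5% in limma was 0 under each alternative in the 4 comparisons. The 24 values named by smallest p kept their direction in all 621 refits (smallest adjusted p 0.197). They were chosen for their small p in these same arrays, so their kept direction is no independent check. Counts with an unadjusted p under 0.05 moved more. The share over all probe sets also changes with the setting and is not given for each refit below. These counts therefore describe the setting and are no result about the members. For SII, 8 became 4 with the region fitted alone, 1 with high or middle signals only and 5 in a plain 2-sample test, and ran from 4 (without SII trained 1) to 8 with 1 array left out. For IPS, 3 became 5 with array weights and 8 without the 3 arrays with raised hybridisation controls, and ran from 2 to 6 (without IPS trained 1 or IPS trained 3). For the difference, 4 became 7 with array weights, 9 without the raised arrays, 2 with high or middle signals only and 2 with the animal as a fixed block, and ran from 3 to 9 (9 without IPS trained 3, 7 without SII trained 3). Between the regions, 12 became 7 without the raised arrays, 2 with the animal as a fixed block and 2 with the 4 animals measured in both regions, and ran from 8 to 19 (without SII trained 1). With the replicate number as a block the counts were 7 in SII, 4 in IPS, 3 for the difference and 9 between the regions. Same-numbered arrays had correlations of deviations between -0.199 and 0.061. Arrays of the same animal had 0.039, 0.048, 0.056 and -0.091, within that range, so these correlations cannot show which arrays are paired.

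Precision is limited by 3 arrays per group, and the median standard error of a training change over all probe sets was 0.44. Of 472 member changes 257 turned sign in at least 1 alternative. The centred values hold no levels, and floor values are upper limits. Hybridisation batches were not analysed here.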
